A study of Homo sapiens with 24 samples.

Results

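Androgen-treated and vehicle-treated VCaP cells in which ERG had been lowered by RNA interference were compared, using 6 of the 24 arrays of the series. The members are the 3 arrays labelled siERG and DHT and the 3 arrays labelled siERG and EtOH, chosen by their labels alone. VCaP is a line from a metastasis of a human prostate cancer, it carries a fusion that places ERG under the androgen-driven TMPRSS2 promoter, and its labels call it androgen-dependent. Cells of both groups received small interfering RNA against ERG 24 h before 2 days in hormone-depleted medium, and then 10 nM dihydrotestosterone (DHT), the most potent natural androgen, or ethanol (EtOH), its vehicle, for 16 h. A matched pair of groups, VCaP cells with a control RNA (siControl) and DHT or EtOH, 3 arrays each, was used to test where the response of siERG cells differed. The siControl arrays also entered the choice of genes tested and the shared estimate of the spread behind the standard errors and p-values of siERG cells. The design text names 3 biological replicates per group (A, B and C) without saying whether they were separate cultures, so p-values measure the spread between these arrays.

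The androgen receptor is a nuclear receptor that moves to DNA when it binds DHT and switches genes on and off with the help of cofactors. In the prostate it drives the secretory programme of luminal epithelial cells, such as kallikrein proteases, and in prostate cancer cells it also controls metabolism and growth. ERG is an ETS-family transcription factor that binds many of the sites the receptor uses, and the TMPRSS2 fusion makes its production in VCaP depend on androgen.

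Biotin-labelled copies of total RNA were hybridised to Affymetrix HG-U133 Plus 2.0 arrays, which report the intensity of 54675 probe sets. The values below are the authors' deposited intensities, and how they were scaled between arrays is not stated. Changes are differences of log2(intensity + 16), so 1 unit is a 2-fold change except that the added 16 shrinks the change of dim genes. They are given as DHT minus EtOH ± standard error, from limma, a linear model with moderated variances, with n = 3 arrays per group, a number that limits the precision of every value. A gene is said to have risen or fallen when its p, adjusted by the Benjamini-Hochberg method over the 12840 genes tested, was below 0.05. Replicates of a group correlated at 0.992 to 0.994. The median intensity of an array was 49.1 to 49.6 with DHT, against 52 to 53.2 with EtOH. The 3' to 5' ratio of the GAPDH control probes, a sign of RNA quality, was 1.03 ± 0.00728 with DHT, against 1.09 ± 0.0237 with EtOH (mean ± SD, two-sided exact permutation p = 0.1, the smallest that 3 against 3 arrays can give). The same ratio for ACTB was 2.84 ± 0.308 with DHT, against 3.05 ± 0.452 with EtOH (exact permutation p = 0.5). Since the GAPDH ratio moved with the treatment, counts with it as a covariate are given beside the gene groups below. That fit makes standard errors larger, by a factor of 2.08 in the median.

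ERG, the gene that was targeted, had intensities of 541, 568 and 536 in siERG cells with DHT, against 569.7, 592 and 567 in siERG cells with EtOH. The 2 groups overlapped and the change did not pass (−0.07 ± 0.06, adjusted p = 0.35). In siControl cells the same probe set read 1204, 1159.7 and 1202 with DHT, against 1029, 1115 and 950.2 with EtOH. All 6 siERG arrays lay below all 6 siControl arrays, and ERG was lower in siERG than in siControl cells by 1.09 ± 0.06 with DHT and by 0.82 ± 0.06 with EtOH. Some ERG signal thus remained in every array, in a transient knockdown of 1 cell line.

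The labelled tissue was checked with 4 marker lists. Among 12 luminal epithelial markers tested, 6 rose and 0 fell, and their summed intensity was 45660.3 to 49477 with DHT, against 38703 to 39677 with EtOH. The keratins KRT18, at 7871, 7645 and 6490.1 with DHT against 3535, 3699 and 3718 with EtOH (1.0 ± 0.07), and KRT8 (0.88 ± 0.08) were among those that rose, both read by probe sets that may bind related transcripts. EPCAM (−0.09 ± 0.04), an adhesion molecule of epithelial cells, and the prostate transcription factors HOXB13 (0.08 ± 0.04) and FOXA1 (0.11 ± 0.06) did not pass. The luminal list holds KLK3, TMPRSS2, SPDEF, ACP3 and MSMB, which are also counted below as androgen-induced genes. Its rise thus cannot be told apart from the response to DHT. Of 11 neuroendocrine markers on the array 9 were tested, 0 rose and 3 fell, with a summed intensity of 4982 to 5368 with DHT, against 6977 to 7730 with EtOH. The basal list had 2 of 6 members tested, 0 risen and 1 fallen, and the list of fibroblast, endothelial and leukocyte markers had 8 of 14 tested, 2 risen and 1 fallen. The rises of LYZ (0.41 ± 0.14) and PECAM1 (0.36 ± 0.12), markers of leukocytes and endothelium, each passed in 2 of 6 fits that left out an array, and the fall of LUM (−1.02 ± 0.10), a matrix protein of fibroblasts, in all 6. Of the neuroendocrine falls, DDC (−0.55 ± 0.06), CHGB (−0.74 ± 0.25) and ENO2 (−0.85 ± 0.11), that of CHGB passed in 3 of 6. With the GAPDH ratio as a covariate 4 luminal markers rose and 0 fell, 1 neuroendocrine marker rose and 1 fell, no basal marker passed, and 0 of the fibroblast, endothelial and leukocyte markers rose and 1 fell. The summed intensity of the fibroblast, endothelial and leukocyte list was 860 to 934 with DHT, against 897 to 957 with EtOH. No marker read 0, and the part of other cells in the results was not tested. In a bulk RNA sample fewer cells of a type and less RNA per cell cannot be told apart.

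With DHT 2576 genes rose, 20.1% of the 12840 tested, and 3238 fell, 25.2%, or 45.3% in either direction. At least 1 log2 unit of rise was reached by 110 genes (0.857%) and of fall by 267 genes (2.08%). The lowest change was that of PPFIA2 and the highest that of ORM1, with a median of −0.025 over all genes and a median standard error of 0.071. The split between directions depended on how arrays were scaled: with each array centred on its median, 3436 genes rose and 2450 fell. With the GAPDH ratio as a covariate 915 of the 12840 genes rose and 1602 fell, the background for the list counts given with that covariate. All 3 DHT arrays lay above all 3 EtOH arrays for 22.8% of genes and below them for 29.3%.

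ORM1, which encodes an acute-phase glycoprotein secreted into plasma, had intensities of 649.7, 636 and 647 with DHT, against 52.5, 39.1 and 60.3 with EtOH. The groups were far apart, and the rise of 3.32 ± 0.19 (adjusted p = 2.37e-07) was the largest of all genes tested. SOX9, a transcription factor of prostate epithelial development, read 551, 563 and 627 with DHT, against 124, 123 and 128 with EtOH, a rise of 2.08 ± 0.07 (adjusted p = 1.04e-08). BHLHA15, a transcription factor known from exocrine cells of the mouse for building the secretory apparatus, read 518, 547 and 532 with DHT, against 94.0, 114 and 157 with EtOH. Its EtOH arrays were uneven, yet each of them lay far below every DHT array, and the rise was 2.02 ± 0.14 (adjusted p = 1.10e-06). STEAP4, a membrane reductase of iron and copper, read 462, 475 and 452 with DHT, against 101, 114 and 109 with EtOH, a rise of 1.95 ± 0.06 (adjusted p = 6.97e-09). FKBP5, a co-chaperone of steroid receptors and a standard androgen target, read 6359, 6469 and 5935 with DHT, against 1752, 2066 and 1894 with EtOH. All DHT arrays were above all EtOH arrays, and FKBP5 rose by 1.71 ± 0.07 (adjusted p = 1.95e-08).

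The other genes among the 15 strongest rises were CTNNA2 (2.43), an alpha-catenin of cell junctions, RIN2 (1.99), a regulator of endocytosis, and CHST2 (1.99), which adds sulfate to carbohydrates. TSPYL2 (1.90), PWWP3B (1.71) and ZBED3-AS1 (1.78), a transcript antisense to ZBED3, belonged to the set as well. Secreted or calcium-binding products were PGC (1.87), a precursor of an acid protease, CST4 (1.77), an inhibitor of cysteine proteases, and S100P (1.69). TIPARP (1.72), an enzyme that attaches ADP-ribose to proteins, completed it. All 15 passed also with the GAPDH ratio as a covariate.

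PPFIA2, which encodes a scaffold protein of the liprin family, had intensities of 363, 418 and 440.5 with DHT, against 3083, 3106 and 3411 with EtOH. The highest DHT array lay well below the lowest EtOH array, and PPFIA2 fell by 2.93 ± 0.08 (adjusted p = 2.13e-09), the largest fall of all genes tested. WNT2, a secreted growth signal, read 38.0, 43.1 and 35.6 with DHT, against 343, 332 and 347 with EtOH, and fell by 2.70 ± 0.07 (adjusted p = 2.13e-09). BCHE, a cholinesterase, read 43.0, 52.5 and 52.2 with DHT, against 309, 247 and 300.1 with EtOH, and fell by 2.21 ± 0.09 (adjusted p = 3.73e-08). FOLH1, the gene of prostate-specific membrane antigen, a target of imaging agents, read 375, 305 and 386 with DHT, against 1562, 1585 and 1566 with EtOH. None of these groups overlapped, and FOLH1 fell by 2.10 ± 0.10 (adjusted p = 1.01e-07).

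RLN1 (−2.56), a relaxin hormone whose sequence is close to that of RLN2, CRISPLD1 (−2.46), a secreted protein, LRRN1 (−2.20) and AMIGO2 (−2.20), both membrane proteins with leucine-rich repeats, were also among the 15 strongest falls. ASZ1 (−2.63) and BRDT (−2.48) are genes known from germ cells. NR4A2 (−2.19) is an orphan nuclear receptor, GPR85 (−2.22) an orphan membrane receptor and SLCO5A1 (−2.19) a member of a transporter family. The set was closed by C8orf34-AS1 (−2.22) and by HMGN2P46 (−2.25), a pseudogene whose probe set may bind related transcripts. With the GAPDH ratio as a covariate GPR85 missed the threshold (adjusted p = 0.0559) and the other 14 passed.

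**Figure D1:**
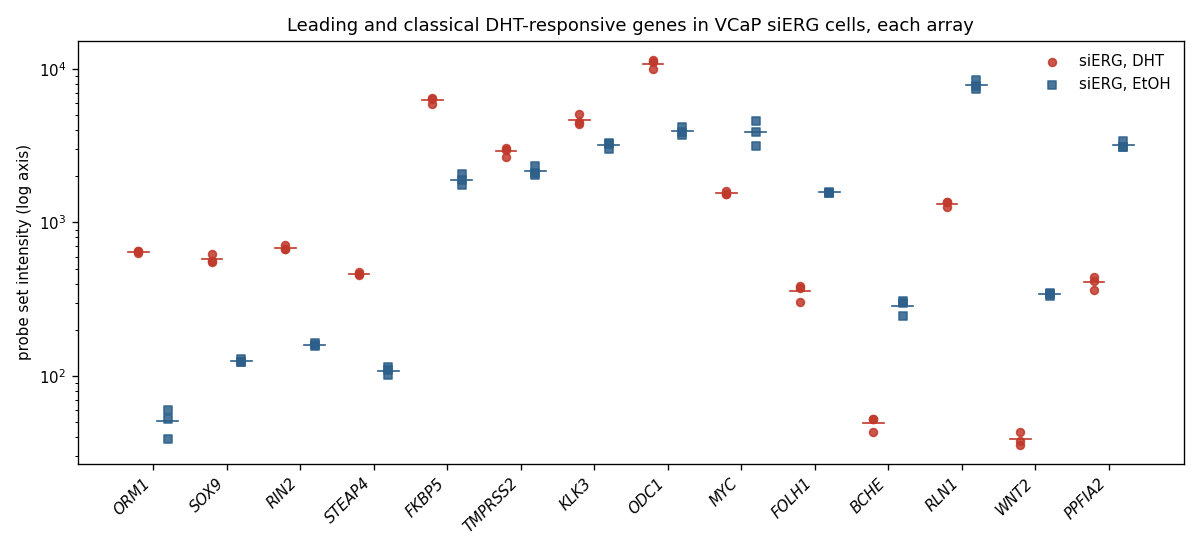
Probe set intensity on a log axis for 14 genes in VCaP siERG cells, with DHT as circles and EtOH as squares, 1 symbol per array and a line at the mean of 3 arrays. The groups did not overlap for any of the 14 genes, and the gap ran from a change of 0.42 ± 0.06 for TMPRSS2 to one of 3.32 ± 0.19 for ORM1 upward and −2.93 ± 0.08 for PPFIA2 downward.

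Androgen-induced genes were followed in 3 lists. Of 14 tested genes of proteases and secretory products 7 rose and 2 fell, with a median change of 0.17. KLK3, the gene of prostate-specific antigen, had intensities of 5085, 4492 and 4359 with DHT, against 3269, 3301 and 3009.8 with EtOH. The groups did not overlap and KLK3 rose by 0.54 ± 0.06 (adjusted p = 5.47e-05), but with the GAPDH ratio as a covariate the change was 0.34 ± 0.12 and did not pass (adjusted p = 0.0718). TMPRSS2, a membrane protease, read 3059.7, 2986 and 2662 with DHT, against 2087, 2343 and 2052 with EtOH, a rise of 0.42 ± 0.06 (adjusted p = 3.34e-04) that did not pass with that covariate either (adjusted p = 0.131). AZGP1, a zinc-binding glycoprotein of seminal fluid (1.65 ± 0.10), and SPDEF, an ETS factor of secretory epithelia read by a probe set with possible cross-hybridisation (1.33 ± 0.06), rose more and passed with the covariate. TGM4, a prostate transglutaminase, fell by 0.85 ± 0.11, and KLK15, another kallikrein, fell by 0.33 ± 0.07. ACP3, the gene of prostatic acid phosphatase (−0.03 ± 0.04), and MSMB, a secreted prostate protein (−0.15 ± 0.16), did not pass. With the covariate 3 of the 14 genes rose and 1 fell.

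The promoter of KLK3 is printed because a classical receptor site lies in it. It spans 250 bases before and 50 bases after the start of the gene, as RefSeq gives it on GRCh38.p14 at chr19:50854665-50854964, plus strand, with the letters of the steroid receptor half-site AGAACA, searched on both strands, in capitals.
KLK3: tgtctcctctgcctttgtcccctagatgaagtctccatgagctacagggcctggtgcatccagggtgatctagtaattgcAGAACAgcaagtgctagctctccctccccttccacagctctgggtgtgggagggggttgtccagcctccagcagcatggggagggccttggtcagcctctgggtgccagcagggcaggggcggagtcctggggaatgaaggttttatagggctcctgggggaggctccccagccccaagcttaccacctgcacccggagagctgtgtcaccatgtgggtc
The match begins 170 bases before the start. AGAACA occurred in 3 of 12 androgen-induced regulator promoters, those of FKBP5, PMEPA1 and BHLHE40, in 2 of 12 in the list of proteases and secretory products, those of KLK3 and PIP, and in 1 of 17 in that of membrane proteins and transporters. The last is ATP2C1, which fell (−0.26 ± 0.05), and PIP did not pass (−0.12 ± 0.10). These shares are 25%, 16.7% and 5.88%, against 8.93% of the 10428 promoters of genes tested and 14.9% of all 27305 promoters. A match is a description of letters and not a measured site.

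Of 18 androgen-induced regulators tested 15 rose and 1 fell, with a median change of 0.82. LRIG1, a brake on growth factor receptors, rose by 1.60 ± 0.07 (adjusted p = 6.40e-08) and ERRFI1, an inhibitor of the EGF receptor, by 1.31 ± 0.06. SGK1, a kinase induced by steroids, rose by 1.13 ± 0.07, and EAF2, a partner of an elongation factor of RNA polymerase, by 1.05 ± 0.07. TRIB1, a pseudokinase, fell by 1.10 ± 0.05 (adjusted p = 1.01e-07). ZBTB10 (−0.05 ± 0.06) and TSC22D3 (0.19 ± 0.09) did not pass. With the covariate 11 rose and 1 fell. Of 18 androgen-induced membrane proteins and transporters 9 rose and 4 fell. LIFR, a cytokine receptor, rose by 1.49 ± 0.06, GNMT, a glycine methyltransferase, by 1.26 ± 0.07 and ABCC4, an efflux pump, by 0.57 ± 0.06. PTGER4, a prostaglandin receptor, fell by 1.03 ± 0.05 and SLC4A4, a bicarbonate transporter, by 0.95 ± 0.05. STEAP1 (−0.02 ± 0.05), STEAP2 (0.08 ± 0.04) and SLC45A3 (0.04 ± 0.06), all membrane proteins of prostate epithelium, did not pass.

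Androgen-repressed genes moved the other way: of 21 tested 16 fell and 3 rose, with a median change of −1.07, and 12 fell by at least 1 log2 unit. With the covariate 15 fell and 2 rose. OPRK1, an opioid receptor, read 1023, 969 and 1009 with DHT, against 4663, 4142 and 4217 with EtOH, and fell by 2.10 ± 0.07 (adjusted p = 8.73e-09). MET, the receptor of hepatocyte growth factor, fell by 1.36 ± 0.10. MYC, a transcription factor that drives growth genes, read 1528, 1615 and 1538 with DHT, against 4615, 3165 and 3892 with EtOH. All DHT arrays lay below all EtOH arrays although the EtOH arrays were spread, and MYC fell by 1.29 ± 0.11 (adjusted p = 4.74e-06). The exceptions that rose were TNFRSF10B, a death receptor (0.78 ± 0.05), UGT2B28, described next, and PEG10, a retrotransposon-derived gene (0.16 ± 0.05), whose call was made in 1 of 6 fits that left out an array, the one without siERG-EtOH replicate B. THBS1, a matrix protein (−0.16 ± 0.07), did not pass.

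Genes that make and clear steroids split, 7 of 19 tested rising and 6 falling. UGT2B15 and UGT2B28 encode enzymes that tag androgens with glucuronic acid for removal. UGT2B15 read 387, 528 and 546 with DHT, against 1747, 1649 and 1869.5 with EtOH, and fell by 1.83 ± 0.12 (adjusted p = 7.94e-07). UGT2B28 read 404, 398 and 311 with DHT, against 131, 146 and 148 with EtOH, a rise of 1.29 ± 0.18 (adjusted p = 1.52e-04). These genes are close relatives, their probe sets may bind more than 1 of them, and UGT2B17 (−0.41 ± 0.51) did not pass. SRD5A1, which turns testosterone into DHT, rose by 0.59 ± 0.06, and STS, which frees steroids from sulfate, by 0.57 ± 0.06. HSD17B6, which can turn a DHT metabolite back into DHT, fell by 1.07 ± 0.10, and AKR1C3, which makes testosterone and also has near-identical relatives, by 0.98 ± 0.09. Among 21 cofactors and chaperones of the androgen receptor 7 rose and 3 fell. The co-chaperones STIP1 (0.46 ± 0.06) and DNAJA1 (0.31 ± 0.06) rose, and the coactivator NCOA2 fell by 0.91 ± 0.06. FOXA1 and HOXB13, given above, and GATA2 (0.08 ± 0.06), which open chromatin for the receptor, did not pass. With the covariate 0 of these 21 rose and 2 fell.

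**Figure D2:**
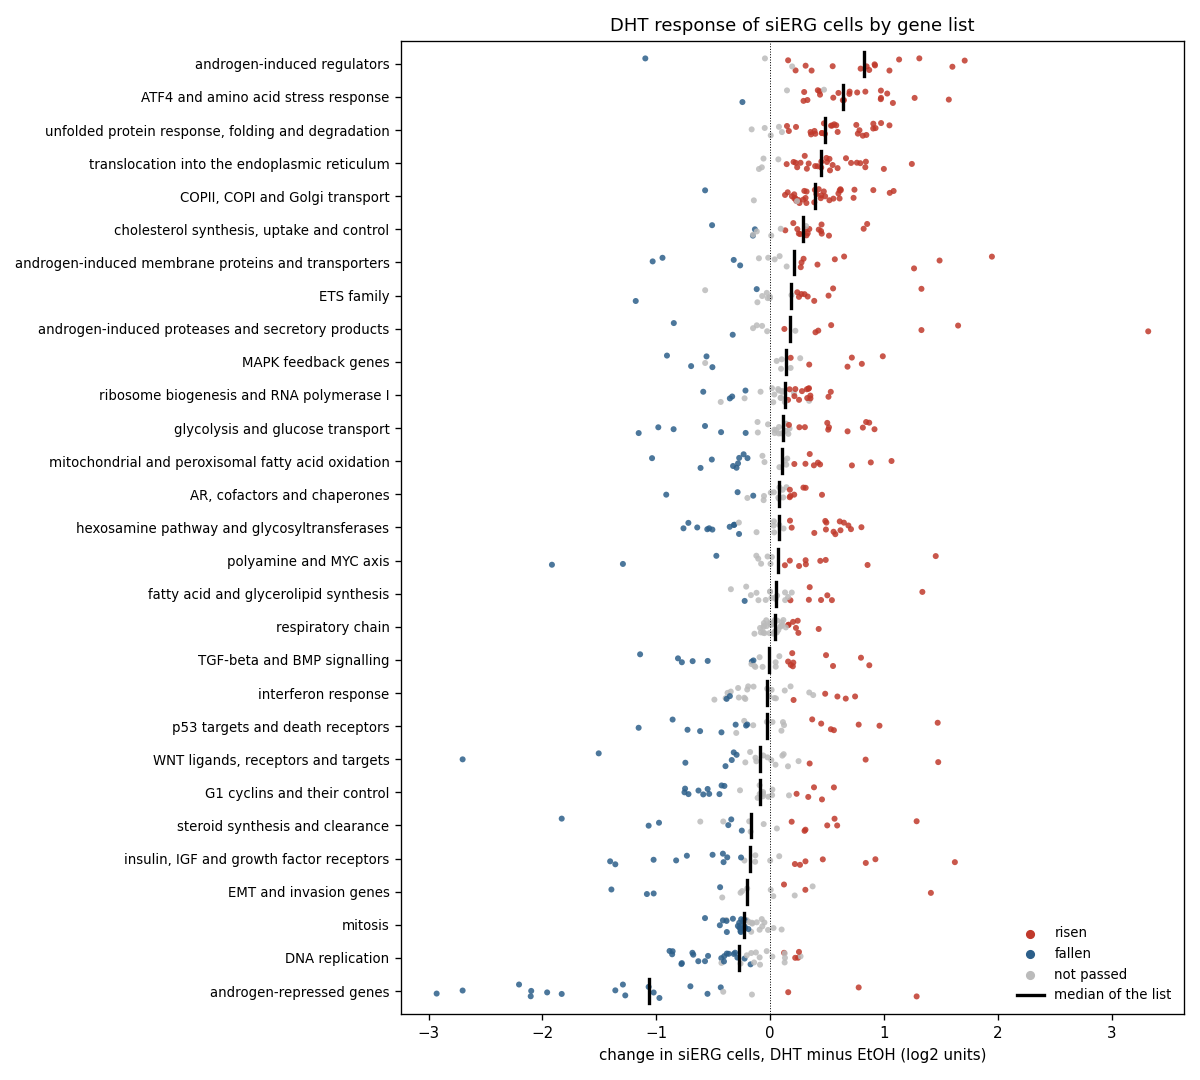
Change with DHT in siERG cells, in log2 units, for the tested members of 29 gene lists, 1 point per gene (red risen, blue fallen, grey not passed) and a black bar at each list's median, sorted by median. The medians run from 0.82 for androgen-induced regulators to −1.07 for androgen-repressed genes, against −0.025 over all genes tested.

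Genes of the secretory route rose in shares above the 20.1% of all genes tested. Proteins for secretion enter the endoplasmic reticulum through a translocation channel, are folded there by chaperones under the watch of the unfolded protein response, and leave in vesicles coated with COPII, while COPI vesicles return material from the Golgi. Of 31 tested genes of the unfolded protein response, folding and degradation 26 rose and 0 fell, with a median change of 0.48. Of 30 genes of translocation 26 rose and 0 fell, median 0.45. Of 37 genes of COPII, COPI and Golgi transport 34 rose and 1 fell, median 0.39. With the GAPDH ratio as a covariate 18, 15 and 22 members of these lists rose and 0 fell in each.

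HSPA5, the main chaperone of the endoplasmic reticulum, had intensities of 6885, 6733 and 6676 with DHT, against 4450.4, 4829.8 and 4715 with EtOH, a rise of 0.54 ± 0.05 (adjusted p = 7.00e-06). The co-chaperones SDF2L1 (1.05 ± 0.09) and DNAJB9 (0.97 ± 0.04) rose more. CRELD2, a secreted folding factor, read 2253, 2138 and 2035 with DHT, against 1078, 1152 and 1128 with EtOH. The groups did not overlap and CRELD2 rose by 0.93 ± 0.05 (adjusted p = 1.91e-07). ERN1, the membrane sensor that splices the messenger of XBP1, rose by 0.91 ± 0.07, although a dimmer probe set of ERN1 moved the other way, and MANF, a secreted stress protein, by 0.91 ± 0.06. XBP1 itself rose by 0.79 ± 0.05, and it and HSPA5 were chosen for their role after their values were seen. The sensor ATF6 (0.10 ± 0.05) and the oxidase ERO1A (−0.05 ± 0.06) did not pass.

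SSR3, a subunit of the translocon-associated complex, read 4235, 4370.2 and 3912 with DHT, against 1756, 1819.8 and 1674 with EtOH, and rose by 1.25 ± 0.05 (adjusted p = 3.15e-08). SEC61A1, the pore of the channel, read 3532, 3594 and 3185 with DHT, against 1651, 1802 and 1677 with EtOH, a rise of 1.0 ± 0.07 (adjusted p = 1.10e-06). SSR1 (0.84 ± 0.05) of the same complex, SRPRB (0.84 ± 0.06) of the receptor of the signal recognition particle, and SPCS3 (0.79 ± 0.04) of the signal peptidase rose as well, the last 2 read by probe sets that may bind related transcripts. SRP9 (−0.07 ± 0.04) and SEC11A (−0.10 ± 0.05) did not pass.

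Among the transport genes the membrane-bound transcription factor CREB3L2, which is known to switch on COPII genes, read 2152, 2068 and 2161 with DHT, against 984, 1031 and 968 with EtOH, and rose by 1.08 ± 0.06 (adjusted p = 1.61e-07). Its relative CREB3L4, a factor of prostate epithelium, rose by 0.91 ± 0.05, and the COPII coat subunit SEC24D by 1.05 ± 0.12 (adjusted p = 3.46e-05). TMED9, a cargo receptor, rose by 0.74 ± 0.09 and SEC16A, which organises the exit sites, by 0.73 ± 0.06. The fall in this list was that of CREB3L1 (−0.57 ± 0.20), whose call was lost without siERG-DHT replicate A or C or siERG-EtOH replicate A or C (adjusted p up to 0.152). COPG2 (−0.14 ± 0.08), a subunit of the COPI coat, did not pass.

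**Figure D3:**
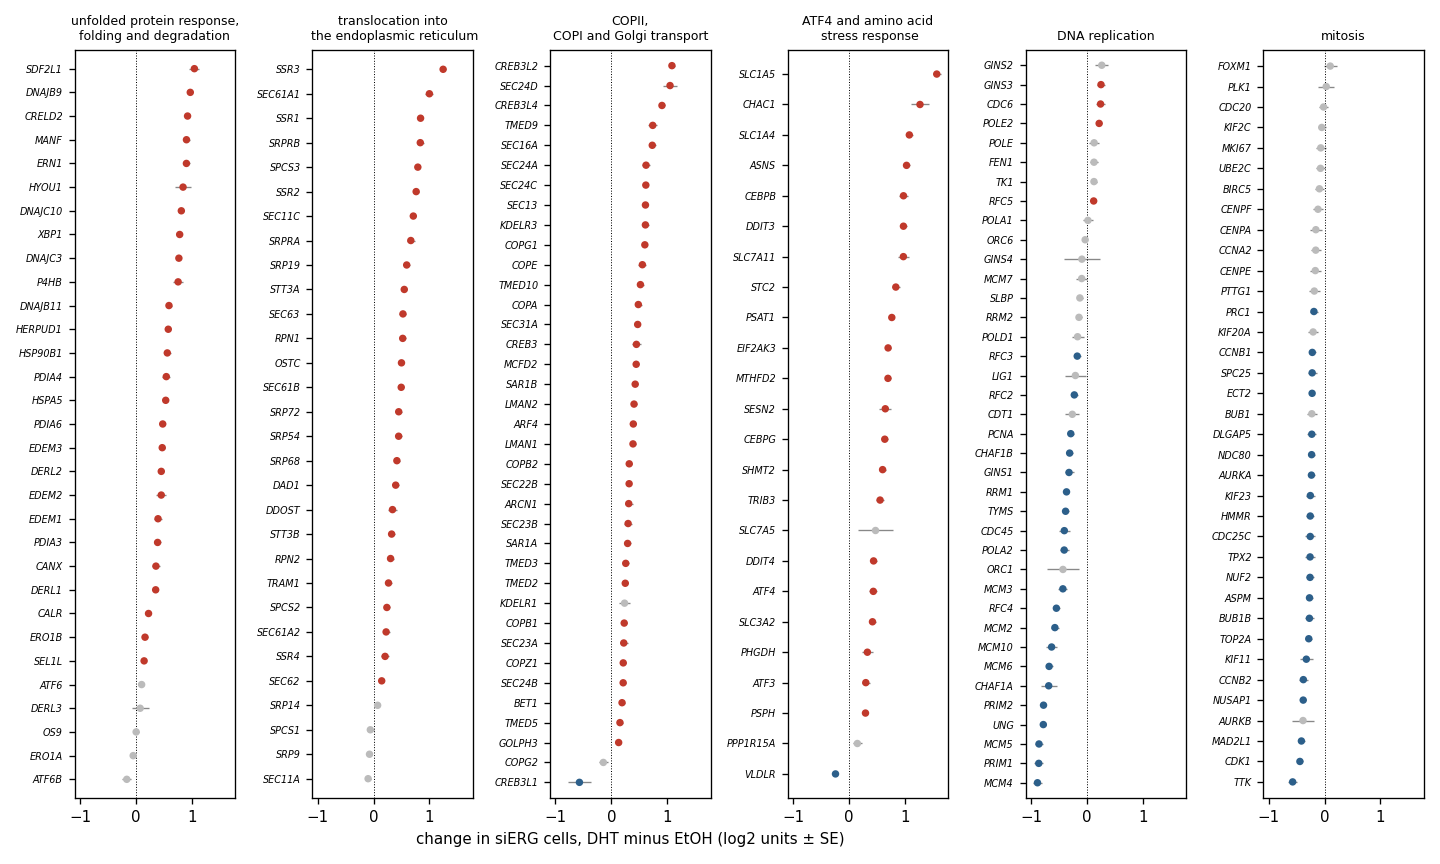
Change with DHT in siERG cells, in log2 units ± SE, for each tested member of 6 gene lists, with risen genes in red, fallen in blue and those that did not pass in grey. The 4 panels of secretory and amino acid genes lie mostly to the right of 0, with 1.57 for SLC1A5 as the highest value, and the panels of DNA replication and mitosis mostly to the left, down to −0.88 for MCM4.

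The promoters of HSPA5 and CRELD2 are printed because both genes carry the endoplasmic reticulum stress element, which ATF6 and the CCAAT-binding factor NF-Y are known to bind. RefSeq gives HSPA5 at chr9:125241294-125241593 on the minus strand and CRELD2 at chr22:49918384-49918683 on the plus strand of GRCh38.p14. Capitals mark the element, which is CCAAT, then 9 bases of any kind, then CCACG, searched on both strands, and which includes the shorter CCAAT box.
HSPA5: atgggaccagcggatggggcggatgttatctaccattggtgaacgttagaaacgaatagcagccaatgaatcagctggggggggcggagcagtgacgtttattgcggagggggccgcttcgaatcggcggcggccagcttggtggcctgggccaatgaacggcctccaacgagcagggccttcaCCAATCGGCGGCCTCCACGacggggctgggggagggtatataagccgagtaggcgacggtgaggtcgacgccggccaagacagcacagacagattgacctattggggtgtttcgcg
CRELD2: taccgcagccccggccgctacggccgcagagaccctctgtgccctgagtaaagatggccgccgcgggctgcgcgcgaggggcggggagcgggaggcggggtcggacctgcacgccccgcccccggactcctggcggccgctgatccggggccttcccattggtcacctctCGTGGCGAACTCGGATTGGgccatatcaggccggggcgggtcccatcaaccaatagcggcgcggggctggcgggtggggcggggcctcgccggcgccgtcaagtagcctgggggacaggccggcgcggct
The match begins 66 bases before the start in HSPA5 and 80 bases before it, on the opposite strand, in CRELD2. It was present in 7 of 28 promoters of the folding list, or 25%, against 0.134% of the promoters of genes tested. The other holders were HSP90B1, CALR, CANX, XBP1 and ERO1B. All 7 rose, by 0.165 to 0.926, while 83.9% of the tested list rose. The CCAAT box alone was in 85.7% of these promoters, against 37.1% of those of genes tested.

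Sugar chains are added to secreted proteins from nucleotide sugars, which the hexosamine pathway helps to make. This list split, with 14 of 31 tested genes rising and 10 falling, and with the covariate 9 rose and 7 fell. GNPNAT1, an enzyme of the hexosamine pathway, read 1684, 1582 and 1531 with DHT, against 906, 901 and 921 with EtOH (0.80 ± 0.06), and UAP1 (0.62 ± 0.04), a later enzyme of it, rose too. UXS1, which makes another nucleotide sugar, fell by 0.55 ± 0.08. B4GALT1 (0.71 ± 0.07) and B3GNT2 (0.69 ± 0.06), which extend chains, were among those that rose. Of the enzymes that start chains on serine or threonine GALNT2 rose by 0.65 ± 0.06 and GALNT3 fell by 0.72 ± 0.05. GCNT2 (−0.76 ± 0.06) and GCNT1 (−0.54 ± 0.06), which branch chains, fell, as did SLC35A1 (−0.64 ± 0.05), the transporter of activated sialic acid.

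ATF4 is a transcription factor that cells make when amino acids run short or the endoplasmic reticulum is stressed, and its targets import and synthesise amino acids. Of 24 tested genes of this response 21 rose and 1 fell, with a median change of 0.64, and with the covariate 13 rose and 1 fell. SLC1A5, an importer of glutamine, had intensities of 332, 330.2 and 388 with DHT, against 102, 98.9 and 121 with EtOH, and rose by 1.57 ± 0.08 (adjusted p = 8.46e-08). CHAC1, an enzyme that degrades glutathione, read 301, 358 and 235 with DHT, against 97.4, 118 and 124 with EtOH, and rose by 1.27 ± 0.17 (adjusted p = 1.08e-04). ASNS, asparagine synthetase, read 3898, 4195 and 3761 with DHT, against 1811, 1952 and 2023 with EtOH, a rise of 1.03 ± 0.06 (adjusted p = 2.15e-07). None of these groups overlapped. SLC1A4, a carrier of alanine and serine, rose by 1.08 ± 0.07, and CEBPB, a partner of ATF4 on DNA, by 0.97 ± 0.08. VLDLR, a lipoprotein receptor, fell by 0.24 ± 0.04. SLC7A5, a leucine carrier (0.47 ± 0.31), and PPP1R15A, which restores translation (0.15 ± 0.08), did not pass.

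The promoter of CHAC1 is printed because CHAC1 is a known target of ATF4. RefSeq gives it at chr15:40953221-40953520, plus strand, GRCh38.p14, with the C/EBP-ATF element TGATGNAA, searched on both strands, in capitals.
CHAC1: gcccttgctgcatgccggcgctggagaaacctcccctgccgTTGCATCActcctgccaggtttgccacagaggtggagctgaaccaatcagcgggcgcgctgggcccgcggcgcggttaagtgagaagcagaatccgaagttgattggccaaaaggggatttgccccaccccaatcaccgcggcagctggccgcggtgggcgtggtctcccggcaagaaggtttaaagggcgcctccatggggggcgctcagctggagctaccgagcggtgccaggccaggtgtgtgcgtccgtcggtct
The match lies on the opposite strand and begins 209 bases before the start. The element was found in 4 of 21 promoters of this list, those of ATF3, ASNS, CHAC1 and SLC3A2, or 19%, against 1.84% of the promoters of genes tested. All 4 genes rose, by 0.299 to 1.27, while 87.5% of the tested list rose.

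Cholesterol genes rose in 16 of 24 cases tested and fell in 3, median 0.29, and with the covariate 6 rose and 1 fell. DHCR7, the last enzyme of the pathway, read 1968, 2033 and 1933 with DHT, against 991, 1092 and 1189 with EtOH, without overlap, and rose by 0.85 ± 0.06 (adjusted p = 1.43e-06). NSDHL, an earlier enzyme, rose by 0.82 ± 0.07, EBP, a sterol isomerase, by 0.45 ± 0.08, and SQLE, squalene epoxidase, by 0.45 ± 0.07. IDI1 rose by 0.52 ± 0.06 in its representative probe set and a second one, while 2 dimmer probe sets read lower with DHT. ABCA1, which exports cholesterol, fell by 0.51 ± 0.06. It was dim, with means of 30.7 with DHT and 50.5 with EtOH, both below the array medians. SREBF2, a transcription factor that switches this pathway on (0.32 ± 0.12, adjusted p = 0.0556) did not pass.

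Of 24 tested genes of fatty acid and glycerolipid synthesis 7 rose, 1 fell and 16 did not pass. FASN, fatty acid synthase, read 2732, 2484 and 2322 with DHT, against 829.8, 1002 and 1140.3 with EtOH. The groups did not overlap, and FASN rose by 1.34 ± 0.16 (adjusted p = 6.12e-05). ACLY (0.54 ± 0.06) and ACACA (0.50 ± 0.12), which make the building blocks FASN uses, and ELOVL5 (0.45 ± 0.05), which lengthens its products, rose less. ELOVL6 (−0.10 ± 0.06), FADS2 (0.05 ± 0.23) and ME1 (0.13 ± 0.07) did not pass. Fatty acid oxidation split evenly, 9 of 24 rising and 9 falling, with peroxisomal and mitochondrial enzymes in both directions. AMACR, a racemase and a diagnostic marker of prostate cancer, rose by 1.07 ± 0.06, the peroxisomal oxidase ACOX3 by 0.88 ± 0.13 and the mitochondrial isomerase ECI1 by 0.72 ± 0.08. The peroxisomal enzyme EHHADH fell by 1.04 ± 0.29, a call lost without siERG-DHT replicate A (adjusted p = 0.0579). The mitochondrial enzymes ACAA2 (−0.61 ± 0.05) and HADH (−0.51 ± 0.05) fell as well.

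Polyamines are small cations that the prostate secretes in quantity, and ODC1 and SRM encode enzymes of their synthesis. ODC1 read 11472, 11050.0 and 9939 with DHT, against 3888, 4189 and 3724 with EtOH, a rise of 1.46 ± 0.06 (adjusted p = 4.63e-08). SRM read 2356, 2318 and 2278 with DHT, against 1239, 1384 and 1202 with EtOH, a rise of 0.86 ± 0.05 (adjusted p = 5.71e-07). Neither pair of groups overlapped. Both genes are known MYC targets, and MYC fell, as given above. ARG2, an arginase that yields the precursor of polyamines, fell by 1.92 ± 0.08 (adjusted p = 3.17e-08). In the list of 18 polyamine and MYC-axis genes tested 9 rose and 3 fell. MAX, the partner of MYC (−0.08 ± 0.05), did not pass, and MXI1, an antagonist, fell by 0.47 ± 0.05. Of 33 genes of ribosome biogenesis and RNA polymerase I, many of them MYC targets, 14 rose and 4 fell, median 0.13, but with the covariate 2 rose and 2 fell. NOP2, which methylates ribosomal RNA, rose by 0.53 ± 0.07, and POLR1D, a polymerase subunit, fell by 0.59 ± 0.04. The MYC letters CACGTG stood in 12 of 28 promoters of this list, 42.9%, against 10.1% of promoters of genes tested. Of the 12 genes 5 rose and 1 fell, near the shares of the tested list, 42.4% risen and 12.1% fallen.

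Of 38 DNA replication genes tested 20 fell and 4 rose, 52.6% and 10.5%, against 25.2% and 20.1% of all genes, median −0.27, and with the covariate 14 fell and 0 rose. MCM4, a subunit of the helicase that opens DNA, had intensities of 1117, 1089.7 and 902 with DHT, against 1946, 1862 and 1943 with EtOH, and fell by 0.88 ± 0.08 (adjusted p = 1.05e-05). The subunits MCM5 (−0.86 ± 0.08), MCM6 (−0.68 ± 0.06), MCM2 (−0.57 ± 0.08) and MCM3 (−0.43 ± 0.08) fell, of which the last 3 were chosen after their values were seen, and MCM7 (−0.09 ± 0.09) did not pass. Both primase subunits fell, PRIM1 by 0.86 ± 0.08 and PRIM2 by 0.78 ± 0.05, as did UNG, which removes uracil from DNA, by 0.78 ± 0.06. TK1, thymidine kinase (0.13 ± 0.05), and RRM2, a subunit of ribonucleotide reductase (−0.14 ± 0.06), did not pass.

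Of 36 mitosis genes 21 fell, 58.3%, and 0 rose, with a median change of −0.23. TTK, a kinase of the spindle checkpoint, showed the largest change and fell by 0.57 ± 0.08. With arrays centred on their median 11 fell, and with the GAPDH covariate 4 fell. CDK1, the kinase that drives entry into mitosis, read 3182, 3041 and 3239.7 with DHT, against 4439.8, 4268 and 4160.3 with EtOH, and fell by 0.44 ± 0.05 (adjusted p = 5.24e-05) without overlap of the groups. MAD2L1, of the spindle checkpoint, fell by 0.41 ± 0.06 and NUSAP1, a spindle protein, by 0.38 ± 0.06. MKI67, the gene of the proliferation marker Ki-67 (−0.07 ± 0.09), PLK1 (0.03 ± 0.14) and FOXM1, a transcription factor of this programme (0.10 ± 0.12), did not pass. Among 26 genes of G1 control 10 fell and 5 rose. E2F3, a transcription factor of replication genes (−0.75 ± 0.05), SKP2, which destroys a cell cycle inhibitor (−0.72 ± 0.05, a probe set that may bind related transcripts), and BTG1, which slows proliferation (−0.75 ± 0.04), fell. CDKN1A, the inhibitor p21, rose by 0.56 ± 0.07, and E2F1 (−0.02 ± 0.21) and CCNE1 (−0.11 ± 0.09) did not pass.

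The promoters of MCM2 and CDK1 are printed as examples of replication and mitosis genes with the letters of their known regulators. RefSeq places MCM2 at chr3:127598161-127598460 and CDK1 at chr10:60778081-60778380, both on the plus strand of GRCh38.p14. Capitals mark the E2F letters TTTNGCGC in MCM2, found on both strands in overlapping places. In CDK1 they mark TTTGAA, the letters of a cell cycle homology region, and CCAAT, those of an NF-Y box. All were searched on both strands.
MCM2: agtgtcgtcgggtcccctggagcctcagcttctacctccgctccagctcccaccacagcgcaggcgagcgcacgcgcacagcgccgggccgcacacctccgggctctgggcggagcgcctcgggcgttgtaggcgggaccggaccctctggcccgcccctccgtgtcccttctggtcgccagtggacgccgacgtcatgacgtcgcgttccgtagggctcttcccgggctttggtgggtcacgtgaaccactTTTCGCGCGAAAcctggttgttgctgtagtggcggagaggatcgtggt
CDK1: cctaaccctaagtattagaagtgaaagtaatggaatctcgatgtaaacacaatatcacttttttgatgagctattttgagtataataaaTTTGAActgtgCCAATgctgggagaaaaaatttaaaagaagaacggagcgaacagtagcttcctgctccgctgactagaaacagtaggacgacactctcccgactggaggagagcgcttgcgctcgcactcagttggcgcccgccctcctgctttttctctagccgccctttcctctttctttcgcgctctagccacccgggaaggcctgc
In MCM2 the first match begins 2 bases after the start, and in CDK1 the matches begin 161 and 150 bases before it. These are matches of letters, and whether they are the sites that the regulators use was not tested. TTTNGCGC was in 13 of 35 replication promoters, 37.1%, against 2.92% of the promoters of genes tested. Of the 13 genes 5 fell and 3 rose, where 52.6% of the tested replication list fell and 10.5% rose. TTTGAA was in 21 of 30 mitosis promoters, 70%, against 9.83%, and CCAAT in 24 of 30, 80%, against 37.1%. Of the 21 genes with TTTGAA 16 fell and 0 rose, where 58.3% of the tested mitosis list fell and 0 rose.

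Growth signals and their receptors went both ways, with 7 of 22 tested genes risen and 10 fallen. IGF1, a growth factor, had intensities of 298, 239 and 361 with DHT, against 60, 82.0 and 122 with EtOH, and rose by 1.62 ± 0.24 (adjusted p = 2.91e-04). Probe sets of IGF1 differed in size, with changes of 0.403, 0.457 and 0.2 in 3 others and −0.356 in a dim one. EGFR (0.93 ± 0.08), the EGF receptor, and VEGFA (0.84 ± 0.09), a signal to blood vessels, rose. TGFA, a ligand of the EGF receptor, fell by 1.41 ± 0.07, IGFBP3, which binds IGF1 outside the cell, by 1.02 ± 0.08, and IRS2, which relays insulin and IGF1 signals, by 0.73 ± 0.11. Among 16 MAPK feedback genes 6 rose and 4 fell: the phosphatases DUSP2 (0.99 ± 0.11) and DUSP1 (0.81 ± 0.06) rose, and SPRY1 (−0.91 ± 0.05) and SPRY4 (−0.51 ± 0.09), which damp receptor signals, fell. EGR1 (0.10 ± 0.06) did not pass.

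In the WNT list 3 of 22 genes rose and 7 fell, 13.6% and 31.8%, against 20.1% and 25.2% of all genes. RNF43 (−0.39 ± 0.12) and ZNRF3 (−0.34 ± 0.10), which remove WNT receptors, fell. RNF43 had an adjusted p of 0.0618 with siERG-EtOH replicate B left out, and the call of ZNRF3 was lost without siERG-DHT replicate A and without siERG-EtOH replicate C (adjusted p up to 0.0676). Besides the ligand WNT2 the receptors FZD3 (−1.51 ± 0.09) and FZD7 (−0.74 ± 0.08) fell. FZD5, another receptor, read 2304, 2154 and 2298 with DHT, against 765, 843 and 789 with EtOH, and rose by 1.48 ± 0.06 (adjusted p = 1.71e-08). WLS, which escorts WNT proteins to the surface, rose by 0.84 ± 0.05, and the pathway's target AXIN2 (−0.02 ± 0.08) did not pass. Of 24 TGF-beta and BMP genes 9 rose and 7 fell. SMAD3 (−1.14 ± 0.08) and TGFBR2 (−0.55 ± 0.05), the signal carrier and a receptor, fell. SKIL (0.87 ± 0.07), SMAD6 (0.49 ± 0.07), both inhibitors of SMAD signalling, and TGFB2 (0.80 ± 0.07), a ligand, rose.

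Of 23 p53 targets and death receptors 7 rose and 8 fell. FAS, a death receptor, fell by 1.15 ± 0.04 (adjusted p = 1.45e-08), BCL2L11, which promotes cell death, by 0.61 ± 0.06, and TP53INP1, a p53 target, by 0.73 ± 0.04. TNFRSF19, a receptor of the same family as FAS, rose by 1.47 ± 0.06, and AEN, a nuclease, by 0.96 ± 0.08. MDM2 (−0.15 ± 0.09) did not pass. In the ETS family 9 of 19 rose and 2 fell, SPDEF rising most, and ELK3 fell (−1.18 ± 0.12), though a dim probe set of ELK3 moved the other way. ERF, a repressor that competes with ERG, rose by 0.55 ± 0.11, and ETV1 (−0.57 ± 0.40, adjusted p = 0.277) and ETS1 (0.19 ± 0.17) did not pass. Of 15 genes of epithelial to mesenchymal transition and invasion 3 rose and 4 fell, 20% and 26.7%, which are near the 20.1% and 25.2% of all genes. SNAI2, a repressor of epithelial genes, read 405, 361 and 374 with DHT, against 119.8, 144 and 135 with EtOH, and rose by 1.41 ± 0.10 (adjusted p = 8.81e-07). FN1, fibronectin, fell by 1.39 ± 0.07 in a probe set that may bind related transcripts, and ADAM19, a membrane protease, by 1.08 ± 0.12. ADAM19 was dim, with means of 17.9 with DHT and 55.7 with EtOH, and its other dim probe set changed by −0.043. The rise of ITGB1 (0.12 ± 0.04), an integrin, passed in 3 of 6 fits that left out an array. CDH1, E-cadherin (0.01 ± 0.06), and VIM, vimentin (−0.20 ± 0.10), did not pass.

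Glycolysis and glucose transport had 11 of 30 genes risen and 6 fallen. HK2, which traps glucose in the cell, rose by 0.92 ± 0.10, though 2 dimmer probe sets moved the other way, PFKFB2, a regulator of glycolysis, by 0.87 ± 0.07 and the transporter SLC2A3 by 0.81 ± 0.05. SLC2A12, another transporter, fell by 1.15 ± 0.05, and SLC2A1 (0.04 ± 0.12) did not pass. Of 36 genes of the respiratory chain 7 rose, 19.4%, near the background of 20.1%, and 0 fell, against 25.2% of all genes. The largest change was that of CYC1 (0.43 ± 0.07). Of 27 interferon genes 5 rose, 18.5%, also near background, and 2 fell, 7.41%, against 25.2% of all genes. CXCL10, a chemokine (0.75 ± 0.10), and USP18, which restrains the pathway (0.59 ± 0.15), rose, while ISG15 (0.34 ± 0.31), MX1 (−0.19 ± 0.38) and IFIT1 (0.04 ± 0.54) did not pass.

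Fewer members of the remaining lists passed in the fit that included the GAPDH ratio, as fewer of all genes did. In it 915 of 12840 genes rose and 1602 fell, against 2576 and 3238 in the fit without it. For membrane proteins and transporters 5 rose and 2 fell, for steroid enzymes 4 rose and 4 fell, and for polyamine and MYC-axis genes 4 rose and 3 fell. For fatty acid synthesis 3 rose and 0 fell, for fatty acid oxidation 5 rose and 5 fell, and for glycolysis 7 rose and 5 fell. For G1 control 1 rose and 8 fell, for p53 targets 3 rose and 5 fell, for the WNT list 2 rose and 3 fell and for growth factor receptors 4 rose and 6 fell. For MAPK feedback 4 rose and 2 fell, for TGF-beta 4 rose and 3 fell, for the ETS family 3 rose and 1 fell and for invasion genes 2 rose and 2 fell. For interferon genes 2 rose and 0 fell, and for the respiratory chain 0 rose and 0 fell. Among the genes given here with a change, besides KLK3, TMPRSS2 and GPR85, the rises of LYZ, PECAM1, PEG10, STIP1, DNAJA1, EBP, SQLE, ACACA, NOP2, CDKN1A, ERF, CYC1, ST6GAL1, CDO1 and ITGB1 did not pass in that fit, nor did those of PMEPA1 and of HSP90B1, CALR, CANX, ERO1B, ATF3 and SLC3A2, whose promoters are described above. The falls of CHGB, ENO2, KLK15, ATP2C1, CREB3L1, ABCA1, EHHADH, TTK, MAD2L1, RNF43 and ZNRF3 did not pass in it either.

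The response of siERG cells was then set against that of siControl cells, which shares no array with it but shares the estimate of the spread. In siControl cells 2517 genes rose, 19.6%, and 3267 fell, 25.4%. Genes risen in both numbered 1971, which is 76.5% of those risen in siERG and 78.3% of those risen in siControl cells. Genes fallen in both numbered 2560, or 79.1% of the siERG and 78.4% of the siControl falls. Opposite calls were made for 15 genes, of which 4 rose in siERG and fell in siControl cells and 11 fell in siERG and rose in siControl cells. The difference itself passed for only 1 of these 15 genes, which fell in siERG and rose in siControl cells. A further 601 genes rose in siERG cells and did not pass in siControl cells, but the difference itself passed for 1 of these, and likewise for 1 of 667 genes that fell in siERG cells alone.

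The difference between the responses, the siERG change minus the siControl change, passed for 37 of 12840 genes, 0.288%, of which 8 (0.0623%) were higher and 29 (0.226%) lower in siERG cells. The change had the same sign in both for 33 of these genes, being smaller in siERG cells for 18 and larger for 15. This count was fragile: 31 of the 37 passed in no more than 6 of 12 fits that left out 1 array, 0 passed without siControl-EtOH replicate B, and 74 passed without siERG-DHT replicate C. With the GAPDH ratio as a covariate 0 passed in limma, with 747 at an unadjusted p below 0.05, against 1401 in the fit without it. The GAPDH ratio moved with the difference itself: it was lower with DHT in siERG cells, as given above, and in siControl cells it was 1.07 to 1.08 with DHT, against 1.04 to 1.06 with EtOH, without overlap. Its part in the difference was not tested beyond that fit.

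**Figure D4:**
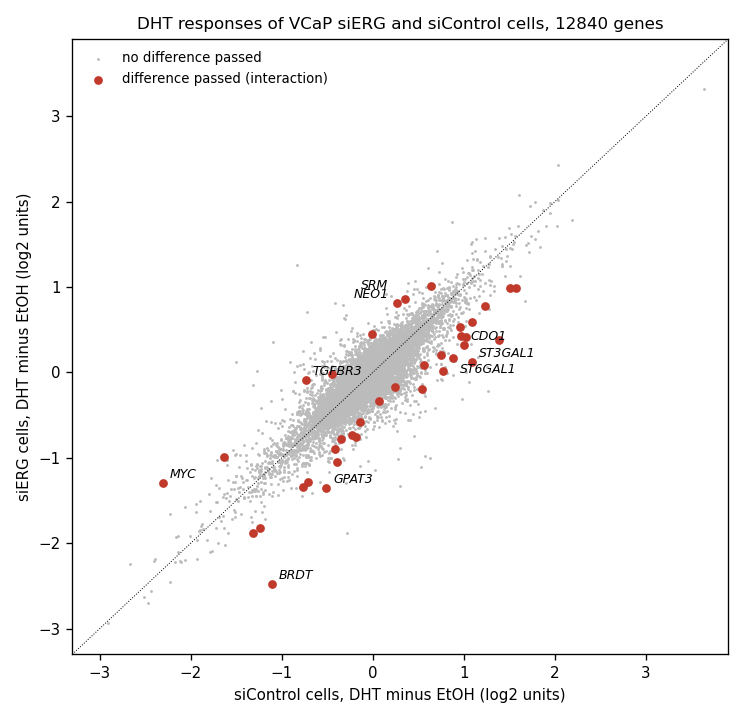
Change with DHT in siERG cells (vertical) against that in siControl cells (horizontal), both in log2 units, for 12840 genes, with the 37 genes whose difference passed in red and the diagonal dotted. Most genes lie near the diagonal, BRDT and GPAT3 lie below it and MYC and TGFBR3 above it.

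MYC had the largest positive difference of the 37 genes. In siControl cells it read 1413, 1624 and 1439.8 with DHT, against 7454, 7434 and 7309 with EtOH, so that with DHT both kinds of cells stood near the same level, while with EtOH siERG cells were lower by 0.94 ± 0.11. The change was −1.29 ± 0.11 in siERG and −2.30 ± 0.11 in siControl cells, a difference of 1.01 ± 0.16 (adjusted p = 0.0342) that passed in 3 of 12 fits without 1 array (adjusted p up to 0.0973). SRM, the polyamine enzyme given above, read 1825, 1777 and 1812 in siControl cells with DHT, against 1463, 1422 and 1354 with EtOH, and the change was larger in siERG than in siControl cells by 0.51 ± 0.08 (adjusted p = 0.0342, passed in 2 of the 12 fits). NEO1, a membrane receptor for guidance signals, read 893, 867 and 823 in siERG cells with DHT, against 476, 511 and 458 with EtOH. In siControl cells NEO1 read 556, 546 and 576 with DHT, against 477, 466 and 443 with EtOH, and the difference was 0.55 ± 0.07 (adjusted p = 0.0216, passed in 4). TGFBR3, a co-receptor of TGF-beta, did not pass in siERG cells (−0.09 ± 0.06) and fell in siControl cells (−0.73 ± 0.06), with a difference of 0.64 ± 0.09 (adjusted p = 0.0216, passed in 3). All 3 DHT arrays of siERG cells lay above all 3 of siControl cells for SRM, NEO1 and TGFBR3, and not for MYC.

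Enzymes that put sialic acid or branches on sugar chains were among the genes whose response was lower in siERG cells. ST6GAL1, a sialyltransferase, read 47.1, 52.3 and 51.3 in siERG cells with DHT, against 44.1, 40.5 and 43.5 with EtOH. In siControl cells it read 168, 178 and 173 with DHT, against 90.9, 84.5 and 83.7 with EtOH. All siERG arrays lay below all siControl arrays, and the response was 0.17 ± 0.05 in siERG and 0.89 ± 0.05 in siControl cells, a difference of −0.71 ± 0.07 (adjusted p = 0.00934). The small rise in siERG cells did not pass without siERG-DHT or siERG-EtOH replicate B (adjusted p up to 0.0566). ST3GAL1, another sialyltransferase, read 757, 866 and 682 in siERG cells with DHT, against 697, 701 and 713 with EtOH, which overlap (0.12 ± 0.10). In siControl cells ST3GAL1 read 1823, 1621 and 1926 with DHT, against 945, 752 and 808 with EtOH, and rose by 1.09 ± 0.10, so that the difference was −0.97 ± 0.14 (adjusted p = 0.0314, passed in 4 of the 12 fits). GCNT2, a branching enzyme, changed by −0.76 ± 0.06 in siERG and −0.18 ± 0.06 in siControl cells, a difference of −0.58 ± 0.09 (adjusted p = 0.0352, passed in 2). These 3 of 31 members of the glycosylation list were called, all lower, against 0.226% of all genes called lower. That list was drawn up with earlier results of these data known, so the counts describe it and do not test it.

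CDO1, which breaks down cysteine, read 174, 179.8 and 157 in siERG cells with DHT, against 138.8, 132.8 and 128.3 with EtOH, while in siControl cells it read 344, 354 and 342 with DHT, against 162, 168 and 166 with EtOH. It rose in both, by 0.32 ± 0.05 and 1.0 ± 0.05, and the difference of −0.68 ± 0.07 passed (adjusted p = 0.00934). ST6GAL1, CDO1, SRPX and SLC38A4 kept their call in 11 of 12 fits that left out 1 array, and KCNS3 in 10. GPAT3, an enzyme of lipid synthesis, fell more in siERG cells (−1.36 ± 0.08) than in siControl cells (−0.51 ± 0.08), a difference of −0.84 ± 0.11 (adjusted p = 0.0216, passed in 7). BRDT fell by 2.48 ± 0.16 in siERG cells and changed by −1.11 ± 0.16 in siControl cells, a difference of −1.37 ± 0.23 (adjusted p = 0.0469) that passed in 2 of 12 such fits.

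**Figure D5:**
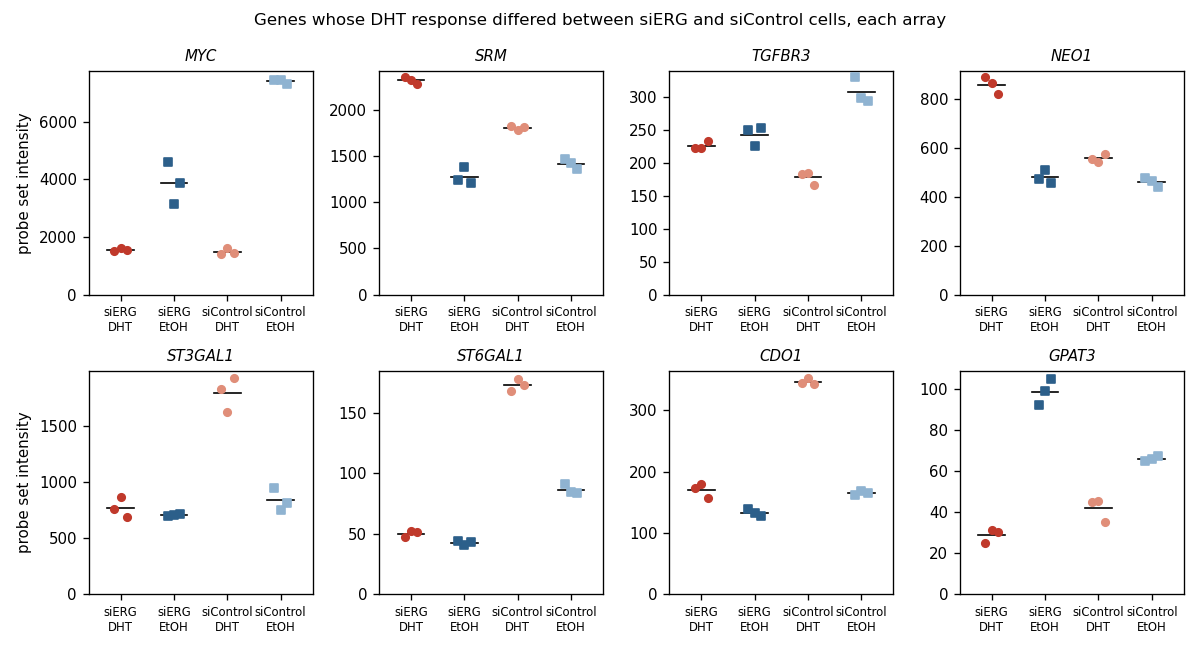
Probe set intensity on linear axes from 0 for 8 genes whose DHT response differed, 1 symbol per array, in the order siERG with DHT, siERG with EtOH, siControl with DHT and siControl with EtOH, with a line at the mean of 3 arrays. The siERG arrays with DHT and EtOH lie close together for ST3GAL1 and ST6GAL1 where the siControl arrays lie apart, and for MYC the gap is narrower in siERG cells.

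For the gene groups described above few or no members differed between the responses. In the unfolded protein response 26 of 31 genes rose in siERG and 25 in siControl cells, in the ATF4 list 21 and 21 of 24, and in COPII, COPI and Golgi transport 34 and 34 of 37. The mitosis list had 21 and 16 falls, DNA replication 20 and 22, and androgen-repressed genes 16 and 16. None of the members of these lists passed the test of the difference, except MYC among the androgen-repressed genes. Ribosome biogenesis had 14 rises in siERG and 5 in siControl cells, with medians of 0.13 and −0.04, but again no member passed the test of the difference. KLK3 rose by 0.54 ± 0.06 in siERG and by 0.61 ± 0.06 in siControl cells, and TMPRSS2 by 0.42 ± 0.06 and 0.71 ± 0.06. The differences of −0.07 ± 0.09 and −0.29 ± 0.09 did not pass (adjusted p = 0.82 and 0.289). ERG did not pass in siERG cells and rose by 0.20 ± 0.06 in siControl cells, and the difference of −0.27 ± 0.08 did not pass (adjusted p = 0.249).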

How the data were processed

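The authors deposited 1 intensity per probe set and array from Affymetrix HG-U133 Plus 2.0 arrays, and the sources used here do not give its software, background correction or scaling. The deposited intensities were positive, not on a log2 scale, and were not rescaled between arrays. From them log2(intensity + 16) was computed here. Probe sets were named from GEO's platform annotation, of which 42898 of 54675 have a gene and 1801 with several genes were left out. For each of the 19775 genes the probe set that was brightest on average over the 24 arrays stood for the gene, and 12840 genes above the array's median in at least 3 of the 12 VCaP arrays were tested.

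A model with 4 VCaP groups was fitted with limma 3.58.1 in R 4.3.3 (lmFit, eBayes), so that the groups share 1 estimate of the spread. The contrasts were DHT minus EtOH in siERG cells, the same in siControl cells, and their difference (interaction), with p-values adjusted over 12840 genes by the Benjamini-Hochberg method. The fit was tested on simulated data.

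Named genes were drawn from the 15 highest and 15 lowest changes, the 10 highest and 10 lowest differences, up to 5 risen and 5 fallen genes of each of 29 pathway and 4 marker lists, listed genes that did not pass, and ERG, KLK3, TMPRSS2, FKBP5 and MYC. Not every gene so selected is named, and which of them are named was chosen with their values in view. HSPA5, XBP1, MCM2, MCM3 and MCM6 were added after their values were seen. Members, lists and this rule were chosen with earlier results of these data known, and lists are described by counts and medians with no test of their own. Promoters, 250 bases before to 50 after the start, and their positions came from RefSeq on GRCh38.p14. The number of arrays, 3 per group, limits the precision. Alternatives were another pseudocount, filter, probe set rule, scaling, variance model, covariate, replicate block and threshold, and leaving out each array.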

Additional observations from a re-analysis of the deposited data

Results flagged for a closer look

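The difference between the DHT response of siERG and that of siControl cells passed in limma for the genes below, tested by the interaction term itself, with adjusted p below 0.05 and values in log2 units. The siERG response was the lower for BRDT (−1.37), LINC00920 (−1.01), ST3GAL1 (−0.97), GPAT3 (−0.84), MAB21L3 (−0.76), TPST2 (−0.73), ST6GAL1 (−0.71), CDO1 (−0.68), NETO1-DT (−0.66), TESC (−0.6) and GCNT2 (−0.58). It was the higher for C8orf33 (0.38), RSL1D1 (0.42), FERMT2 (0.45), SRM (0.51), NEO1 (0.55), FZD10 (0.64), TGFBR3 (0.64) and MYC (1.01). Of these, ST6GAL1, which was dim in siERG cells, and CDO1 passed in 11 of 12 fits that left out 1 array and GPAT3 in 7. The others passed in no more than 4. With the GAPDH ratio as a covariate none of them passed, the lowest adjusted p of any gene being 0.572, with 747 genes at an unadjusted p below 0.05.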

How the results depend on the processing

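The counts of the siERG response, 2576 risen and 3238 fallen, stayed within 1.5 times except with the GAPDH ratio as a covariate (915 and 1602) and with a change of at least 1 log2 unit required (110 and 267). Leaving out 1 array gave 2143 to 2941 risen and 2794 to 3074 fallen. With only the 6 siERG arrays in the fit 2104 genes rose and 2841 fell. Same-letter siERG arrays correlated at 0.107, 0.03 and 0.112 in their deviations from group means, each best with its own letter, which hints at pairs but is too weak to use, and the fit with the replicate letter as a block gave 2489 risen and 3121 fallen. The GAPDH ratio moved with the treatment, and the part of each in the response was not tested. Of 265 genes that passed and that the rule for naming selects, many of them not named in the text, 183 passed and 264 kept their sign with that covariate. Of 265, 237 passed in all 6 fits that left out an array. Of 5479 values of genes under that rule with the alternatives 5210 kept direction and call, 259 lost the call and 10 reversed. With all probe sets of a gene averaged the reversed values were MVK 0.185, RRP12 0.000, RFC5 −0.129, CCNB2 0.092, PHLDA1 −0.064 and ETS2 −0.063. Without probe sets that may bind related transcripts they were IDI1 −0.364, ETS2 −0.175 and NDUFA6 −0.060, and with the GAPDH ratio EP300 −0.014. In these the other probe sets of the gene carry the value, save for EP300, whose cause was not tested.

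The count of genes whose response differed, 8 higher and 29 lower in siERG cells, moved most. It was 5 and 12 with averaged probe sets, 5 and 14 without probe sets that may bind related transcripts, and 1 and 7 with no filter. It was 14 higher with a filter at the 60th percentile, 19 higher after quantile normalization, 13 higher with a larger pseudocount and 13 lower with centred arrays. Array weights gave 73 and 84, and all 24 arrays in 1 fit 41 and 55. The ACTB ratio as a covariate gave 2 and 6, an adjusted p below 0.01 0 and 5, and at least 1 log2 unit 1 and 2. In limma 0 genes passed with the replicate block (1297 at an unadjusted p below 0.05) and 0 and 0 with the GAPDH ratio (747). Leaving out 1 array gave 0 to 40 higher and 0 to 34 lower, with 0 in all without siControl-EtOH replicate B (1322 unadjusted). The cause of these moves was not tested.

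Of 1386 counts of lists 154 moved by more than 1.5 times. Dim probe sets limit the changes that can be seen, since the added 16 shrinks them.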
